A study of Homo sapiens with 24 samples.

Results

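The 10 genes described here encode chemokines of epithelial cells and attractants of neutrophils: IL8, CXCL1, CXCL2, CXCL3, CXCL5, CXCL6, CXCL10, CXCL16, CCL20 and CX3CL1. They were found by their gene names among the non-control probes of 24 Agilent arrays, on which 16 of 50599 probes carried one of these names, out of 36337 names in all. A probe entered the tests if 1 group or more had it well above background on each of its 4 arrays, as 15 of the 16 probes did, so that all 10 genes were among the 20700 tested. The RNA came from HT29, an established cell line from a human colon adenocarcinoma, treated for 6 h. The groups were untreated cells (NT), cells given 30 mM propionate and 15 mM acetate (C3/C2), cells given a Propionibacterium freudenreichii culture supernatant diluted to 1/2 (SN), cells given 100 ng/ml TRAIL cross-linked with 2 µg/ml anti-Flag M2 antibody, and cells given TRAIL with either (TRAIL+C3/C2 and TRAIL+SN), with 4 arrays each. TRAIL is a ligand of death receptors, and propionate and acetate are the main acids of the supernatant, which also holds whatever else the bacteria leave in the medium. All the samples were of 1 cell line, and the labels name no antibody or medium control among the NT cells. The comparisons below address which of these chemokines TRAIL induced and how the acids or the supernatant altered that.

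Chemokines are small secreted proteins that guide leukocytes along a gradient through G protein-coupled receptors. The CXC chemokines that carry an ELR motif, here IL8 (named CXCL8 in RefSeq), CXCL1, CXCL2, CXCL3, CXCL5 and CXCL6, attract neutrophils through CXCR1 and CXCR2, whereas CXCL10 attracts T cells through CXCR3 and CCL20 attracts CCR6-bearing dendritic cells and lymphocytes. CXCL16 and CX3CL1 differ from the others in being anchored in the membrane, from which the proteases ADAM10 and ADAM17 release them. In intestinal epithelium many of these genes are known targets of NF-kB, a transcription factor family that death receptors and cytokine receptors can activate.

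Of the 10 genes, 8 had an entry in the RefSeq promoter table (GRCh38.p14, 250 bases before to 50 after the start site). The windows below are shown because all 8 held the letters GGNNTTTCC, a core of NF-kB sites, on one strand or the other, against 6.26% of the 35116 promoters of this length. They run 5′ to 3′ on the strand of the gene, from 20 bases before the first match to 20 after the last, with the matches in capitals; in CXCL10 and CCL20 the match was on the opposite strand. The NF-kB consensus, which can overlap these letters, was found on either strand in 7 of the 8 promoters, all but IL8, and in 5.91% of all promoters. A match of letters is not a bound site.
IL8: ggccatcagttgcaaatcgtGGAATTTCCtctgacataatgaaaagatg
CXCL1: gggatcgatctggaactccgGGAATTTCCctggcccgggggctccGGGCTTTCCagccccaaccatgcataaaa
CXCL2: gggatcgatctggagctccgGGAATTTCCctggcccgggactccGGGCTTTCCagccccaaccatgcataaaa
CXCL3: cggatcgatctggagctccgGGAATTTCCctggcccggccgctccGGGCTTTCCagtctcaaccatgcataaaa
CXCL5: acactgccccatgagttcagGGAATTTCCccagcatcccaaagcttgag
CXCL6: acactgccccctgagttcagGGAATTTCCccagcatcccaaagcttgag
CXCL10: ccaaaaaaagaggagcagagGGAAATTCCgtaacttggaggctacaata
CCL20: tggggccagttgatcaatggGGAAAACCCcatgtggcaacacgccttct

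The windows lie at chr4:73740458-73740506 (IL8, + strand), chr4:73869295-73869368 (CXCL1, + strand), chr4:74099220-74099292 (CXCL2, - strand), chr4:74038714-74038787 (CXCL3, - strand), chr4:73998739-73998787 (CXCL5, - strand), chr4:73836569-73836617 (CXCL6, + strand), chr4:76023645-76023693 (CXCL10, - strand) and chr2:227813743-227813791 (CCL20, + strand). CXCL1, CXCL2 and CXCL3, which are close paralogs, each held the pair of matches in nearly the same surroundings. CXCL5 and CXCL6 held the same match in windows of near-identical sequence, although against NT CXCL5 was called lower and CXCL6 higher in TRAIL, where slide and treatment cannot be told apart. The probes themselves lie, in the hg19 coordinates of the files, on chromosome 4 for the CXC chemokines other than CXCL16, from 74607982 (IL8) to 76943579 (CXCL10), on chromosome 17 for CXCL16, on chromosome 2 for CCL20 and on chromosome 16 for CX3CL1.

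Levels are given as the log2 of the spot intensity minus the 75th percentile of the array, so that 0 is the level of a bright probe of that array, and levels of different probes are not comparable. A gene was called where its group means differed at least 2-fold with an adjusted p under 0.05 in limma, over all genes tested. Arrays of a group correlated at 0.993 to 0.998, between 49.8% and 57.8% of the probes were well above background on each array, and the 75th percentile of intensity ranged from 453 to 1009, with group medians from 503 (TRAIL+C3/C2) to 883 (NT). The 4 slides did not mix the groups: the first replicates of NT and of C3/C2 shared slide 1, their other arrays shared slide 2, SN and TRAIL shared slide 3 and the co-treatments shared slide 4. C3/C2 against NT, TRAIL against SN and TRAIL+SN against TRAIL+C3/C2 could therefore be read within slides, while in all other comparisons slide and treatment cannot be told apart. By the methods, the 4 arrays of a group came from 2 independent experiments with duplicates. The labels do not say which arrays were duplicates, so n = 4 counts arrays and not independent experiments, and the p-values measure the spread between these samples, which may in part be technical. In a bulk RNA sample more RNA per cell cannot be told apart from more cells expressing the gene. All 10 markers of colon epithelium were well above background on all 24 arrays.

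TRAIL alone raised 8 of the 10 chemokines: IL8, CXCL1, CXCL2, CXCL3, CXCL6, CXCL10, CCL20 and CX3CL1, whereas CXCL5 fell and CXCL16 was not called. Of all genes tested, 0.749% were called higher and 2.18% lower in TRAIL against NT. The median log2 difference of the 10 chemokines was 2.90, against 0.033 for all genes. IL8, CXCL6 and CXCL10 had all 4 arrays well above background only in groups given TRAIL, so they passed the filter through those groups. Counts and medians of the 10 in groups given TRAIL, here and below, include them and are in that part fixed by the filter. Within slide 3, TRAIL exceeded SN for 7 of the 10, where 8% of all genes were called higher. CX3CL1 and CXCL5 were called in TRAIL against NT and not against SN, CX3CL1 with a log2 difference from SN of 0.47 ± 0.26 (SE, n = 4 against 4, limma adjusted p = 0.121).

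**Figure D1:**
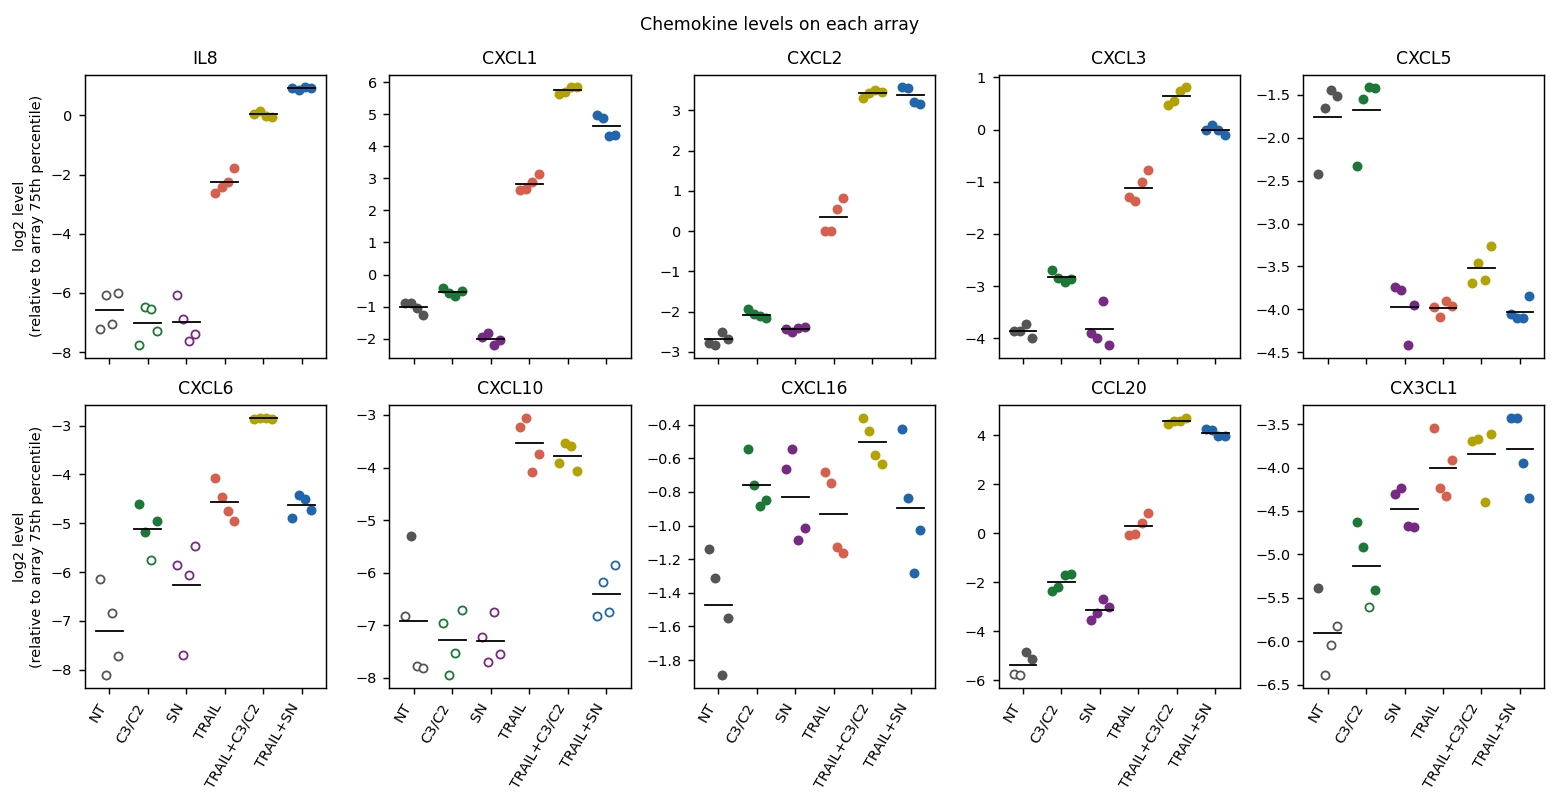
Level of each chemokine on each of the 24 arrays (vertical axis, log2 intensity minus the array's 75th percentile; horizontal axis, group, with replicates 1 to 4 from left to right). Filled circles are well above background, open circles are not, and bars are group means of 4 arrays. For IL8, CXCL1, CXCL2, CXCL3 and CCL20 all arrays of the co-treatments lay above all TRAIL arrays, and all TRAIL arrays above all NT arrays.

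IL8, the prototype neutrophil attractant, was well above background only in the groups given TRAIL. Its levels were -7.23, -6.06, -7.04 and -6.02 in NT, and no array of NT, C3/C2 or SN was well above background. The TRAIL arrays lay at -2.61, -2.40, -2.25 and -1.79, all well above background. TRAIL thus raised IL8 at least 10.9-fold over NT, the bound set by the dimmest probe that was well above background on each NT array (limma adjusted p = 4.8e-09), and at least 9.38-fold over SN on the same slide (limma adjusted p = 3.95e-11). In TRAIL+C3/C2 the levels were 0.037, 0.16, -0.0054 and -0.055, and in TRAIL+SN they were 0.93, 0.86, 0.95 and 0.93. The groups TRAIL, TRAIL+C3/C2 and TRAIL+SN followed each other without overlap. Over TRAIL alone, IL8 was 4.92-fold higher with C3/C2, a log2 difference of 2.30 ± 0.32 (SE, n = 4 against 4, limma adjusted p = 2.39e-06), and 9.06-fold higher with SN, a log2 difference of 3.18 ± 0.32 (SE, n = 4 against 4, limma adjusted p = 1.97e-08). Over NT these came to at least 53.4-fold and at least 98.4-fold. The log2 differences were smaller but still called under normexp background correction, at 1.79 in TRAIL, 3.65 in TRAIL+C3/C2 and 4.43 in TRAIL+SN against NT and 1.66 in TRAIL against SN. TRAIL+SN lay above TRAIL+C3/C2 by 0.88 ± 0.32 (SE, n = 4 against 4, limma adjusted p = 0.0376) on the log2 scale, short of the 2-fold rule.

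The other IL8 probe, for NM_000584, was dimmer, with 1 of 4 TRAIL arrays well above background. On it TRAIL differed from NT by 0.82 (log2; limma adjusted p = 0.102), which was not called, while TRAIL+C3/C2 and TRAIL+SN exceeded TRAIL by 1.92 and 2.98, both called. The call for IL8 in TRAIL alone against NT thus rested on the probe for ENST00000401931. Within slide 4 the other probe was called higher in TRAIL+SN than in TRAIL+C3/C2 (log2 difference 1.05, limma adjusted p = 0.0305).

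CXCL1, CXCL2 and CXCL3, the GRO chemokines, were well above background on all 24 arrays. CXCL1 lay at -0.89, -0.90, -1.03 and -1.25 in NT and at 2.63, 2.66, 2.89 and 3.14 in TRAIL. It reached 5.64, 5.68, 5.83 and 5.83 in TRAIL+C3/C2, and 4.98, 4.88, 4.32 and 4.35 in TRAIL+SN. These groups did not overlap, and each co-treatment lay above TRAIL. TRAIL raised CXCL1 14.4-fold, a log2 difference of 3.85 ± 0.14 (SE, n = 4 against 4, limma adjusted p = 3.86e-14). Over TRAIL alone it was 7.55-fold higher with C3/C2 (log2 difference 2.92 ± 0.14 (SE, n = 4 against 4, limma adjusted p = 1.11e-13)). With SN it was 3.49-fold higher than with TRAIL alone (log2 difference 1.80 ± 0.14 (SE, n = 4 against 4, limma adjusted p = 2.27e-10)). Between the co-treatments CXCL1 was 2.16-fold lower with SN than with C3/C2, with a log2 difference of -1.11 ± 0.14 (SE, n = 4 against 4, limma adjusted p = 2.48e-06) within slide 4. Without TRAIL, SN arrays also lay below C3/C2 arrays, but on other slides, and that pair was not tested. SN arrays, at -2.19 to -1.83, lay below all NT arrays, and C3/C2 arrays, at -0.66 to -0.43, above them. The log2 differences from NT were -0.99 ± 0.14 (SE, n = 4 against 4, limma adjusted p = 1.84e-06) in SN and 0.47 ± 0.14 (SE, n = 4 against 4, limma adjusted p = 0.00535) in C3/C2. Both fell short of 2-fold. The difference of SN was called without NT replicate 4 (-1.07), SN replicate 1 (-1.01) or SN replicate 2 (-1.05), under array median scaling (-1.12) and under quantile normalization (-1.03).

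CXCL2 lay at -2.77, -2.83, -2.50 and -2.67 in NT and at 0.012, 0.0088, 0.55 and 0.83 in TRAIL. With the co-treatments it reached 3.30, 3.43, 3.51 and 3.45 in TRAIL+C3/C2 and 3.57, 3.55, 3.21 and 3.16 in TRAIL+SN. Both co-treatments exceeded all TRAIL arrays but overlapped each other. TRAIL raised CXCL2 8.25-fold, a log2 difference of 3.04 ± 0.14 (SE, n = 4 against 4, limma adjusted p = 2.29e-12), and C3/C2 and SN raised it a further 8.42-fold and 8.11-fold over TRAIL (limma adjusted p = 6.53e-14 and 7.29e-14). The co-treatments differed from each other by -0.053 (95% interval -0.35 to 0.24, log2; limma adjusted p = 0.801). On the other CXCL2 probe the difference between the co-treatments was -0.49, not called.

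CXCL3 lay at -3.87, -3.85, -3.72 and -4.00 in NT and at -1.29, -1.37, -1.0 and -0.78 in TRAIL, 6.72-fold higher (log2 difference 2.75 ± 0.14 (SE, n = 4 against 4, limma adjusted p = 1.66e-11)). It reached 0.47, 0.54, 0.73 and 0.81 in TRAIL+C3/C2, and -0.11 to 0.078 in TRAIL+SN. Over TRAIL these were log2 differences of 1.75 ± 0.14 (SE, n = 4 against 4, limma adjusted p = 7.48e-10) and 1.10 ± 0.14 (SE, n = 4 against 4, limma adjusted p = 7e-07). C3/C2 without TRAIL also raised CXCL3, with arrays at -2.92 to -2.69 above all NT arrays, by 1.03 ± 0.14 (SE, n = 4 against 4, limma adjusted p = 2.09e-06). That call sat at the 2-fold limit: within slide 2 the difference was 0.979 and not called, nor was it without NT replicate 4 (0.983), without C3/C2 replicate 1 (0.980), or under array median scaling (0.728), quantile normalization (0.808) or normexp background correction (0.654).

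The GRO chemokines are closely related in sequence, so a probe of one can bind RNA of another. Among the probes of different chemokines here, the closest pair was a CXCL2 probe and a CXCL1 probe, neither of which represented its gene above, with 32 of 37 overlapping bases identical. A stretch of 30 of these bases is shown, with the 5 bases that differ in capitals, because it shows how alike the closest probes are.
CXCL2: aagcttgTctcaaCccCgcatcGcccatGg
CXCL1: aagcttgCctcaaTccTgcatcCcccatAg
Among the remaining pairs of probes the best overlap had 13 of 22 bases identical. Probes were compared only with probes and not with the RNA of the other genes, so these overlaps do not show which RNA a probe binds. The levels from this CXCL1 probe gave log2 differences of 3.75 in TRAIL against NT, and of 2.88 and 1.75 for C3/C2 and SN over TRAIL, close to those of the probe used. For this CXCL2 probe they were 3.18, 2.71 and 2.22.

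CXCL6, a neutrophil attractant with an activity like that of IL8, was a dim gene, with no NT or SN array well above background. In C3/C2 its levels were -4.60, -5.19, -5.75 and -4.96, 3 of 4 well above background, and in TRAIL they were -4.07, -4.47, -4.74 and -4.95. TRAIL+C3/C2 gave -2.85, -2.84, -2.84 and -2.86, the tightest group of all for this gene, and TRAIL+SN gave -4.90, -4.42, -4.49 and -4.72. TRAIL+C3/C2 stood above every other array, and the TRAIL+SN arrays lay among the TRAIL arrays. CXCL6 was at least 1.49-fold higher than NT in C3/C2, at least 2.22-fold in TRAIL, at least 7.25-fold in TRAIL+C3/C2 and at least 2.1-fold in TRAIL+SN. C3/C2 added 1.71 ± 0.40 (SE, n = 4 against 4, limma adjusted p = 0.000864) to TRAIL on the log2 scale, whereas SN gave -0.076 (95% interval -0.92 to 0.77; limma adjusted p = 0.88). Between the co-treatments CXCL6 was 3.45-fold lower with SN, with a log2 difference of -1.79 ± 0.40 (SE, n = 4 against 4, limma adjusted p = 0.00146) within slide 4. Under normexp background correction CXCL6 was called in TRAIL+C3/C2 against NT (1.68), while in TRAIL against NT (0.763), TRAIL+SN against NT (0.940), TRAIL+C3/C2 against TRAIL (0.922), C3/C2 against NT (0.436) and TRAIL against SN (0.519), it fell short of 2-fold. In SN against NT, with no array of either group well above background, the CXCL6 difference was called without NT replicate 1 (1.28), NT replicate 3 (1.05) or SN replicate 2 (1.41). Its interaction with SN, as defined below, was called without SN replicate 2 (-1.48). The second CXCL6 probe was well above background on no array.

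CXCL5, the remaining ELR chemokine, was called lower than NT in SN, TRAIL and both co-treatments, all on other slides than NT. It lay at -2.42, -1.66, -1.45 and -1.51 in NT and -2.33, -1.55, -1.41 and -1.42 in C3/C2. It lay at -3.74, -3.77, -4.41 and -3.95 in SN and -3.98, -4.08, -3.91 and -3.96 in TRAIL. The co-treatments gave -3.69 to -3.26 and -4.11 to -3.85. Every array of slides 3 and 4 thus lay below every array of slides 1 and 2, and replicate 1 of NT and of C3/C2, both on slide 1, lay between. The log2 differences from NT were -2.21 ± 0.20 (SE, n = 4 against 4, limma adjusted p = 4.41e-09) in SN, -2.22 ± 0.20 (SE, n = 4 against 4, limma adjusted p = 8.02e-08) in TRAIL, -1.75 in TRAIL+C3/C2 and -2.27 in TRAIL+SN, all across slides; under normexp background correction the TRAIL+C3/C2 value was -0.925 and not called, while those of SN, TRAIL and TRAIL+SN were -1.42, -1.31 and -1.14. Within slides there was no called difference: TRAIL differed from SN by -0.015 (95% interval -0.44 to 0.42; limma adjusted p = 0.956), and C3/C2 from NT by 0.080 (95% interval -0.35 to 0.51; limma adjusted p = 0.758). Slide and treatment cannot be told apart for the fall of CXCL5. Among the gene names searched, those whose levels over the 24 arrays were most like CXCL5 were ZNF90 (r = 0.982), CAPNS2 (r = 0.980) and PABPC3 (r = 0.976). None of them is a chemokine.

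**Figure D2:**
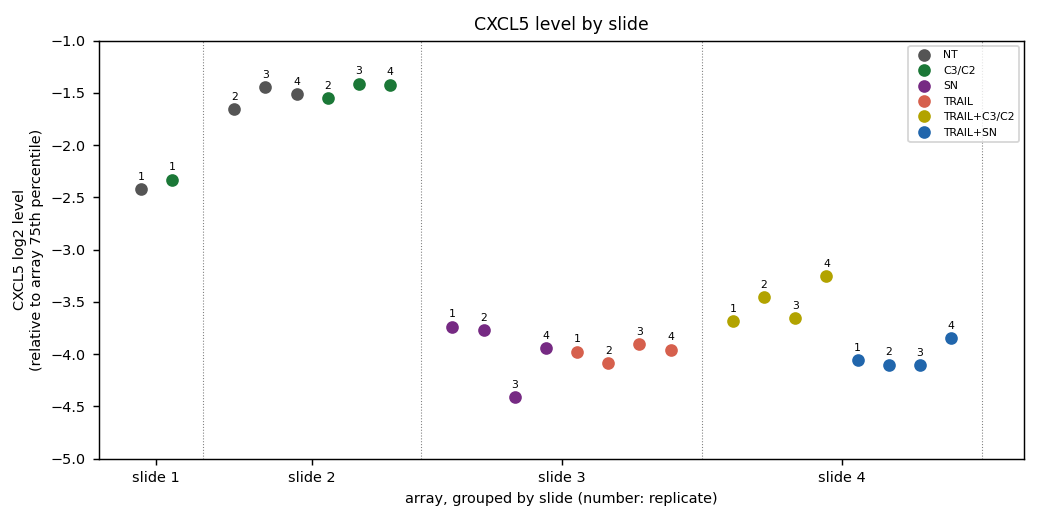
CXCL5 level (vertical axis, log2 intensity minus the array's 75th percentile) on the 24 arrays, set out by slide (horizontal axis; the order within a slide is by group and replicate, not by place on the slide), with colours for groups and digits for replicates. All arrays of slides 3 and 4 lie below those of slides 1 and 2, and the arrays of slide 1 lie below those of slide 2.

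CXCL10, an interferon-inducible attractant of T cells which like CXCL16 carries no ELR motif, was lower in TRAIL+SN than in TRAIL+C3/C2 by the widest log2 difference among the 10. In NT it lay at -6.82, -5.31, -7.78 and -7.81, with replicate 2 alone well above background, and no array of C3/C2 or SN was. In TRAIL it lay at -3.22, -3.05, -4.09 and -3.75, all well above background, 10.6-fold higher than NT on the measured means (log2 difference 3.40 ± 0.42 (SE, n = 4 against 4, limma adjusted p = 3.61e-06)) and at least 3.91-fold higher than SN on the same slide. TRAIL+C3/C2 gave -3.92, -3.53, -3.59 and -4.06, among the TRAIL arrays, and TRAIL+SN gave -6.82, -6.18, -6.74 and -5.86, none of them well above background. With C3/C2 the log2 difference from TRAIL was -0.25 (95% interval -1.13 to 0.64; limma adjusted p = 0.622). With SN, CXCL10 was at least 2.94-fold lower than in TRAIL alone (limma adjusted p = 3.59e-06) and, within slide 4, at least 2.48-fold lower than in TRAIL+C3/C2 (limma adjusted p = 4.96e-05). The other CXCL10 probe gave log2 differences of 3.43 for TRAIL against NT, -0.52 for TRAIL+C3/C2 against TRAIL and -3.01 for TRAIL+SN against TRAIL, called in the same comparisons. TRAIL+SN was not called against NT (0.53, 95% interval -0.36 to 1.41), but without NT replicate 2 the difference was 1.07 and was called, a difference between levels of which none was well above background. Under normexp background correction, which compresses dim probes, CXCL10 in TRAIL against SN was 0.978, in TRAIL+SN against TRAIL -0.51 and in TRAIL+SN against TRAIL+C3/C2 -0.58, all short of 2-fold, while TRAIL and TRAIL+C3/C2 against NT fell to 1.12 and 1.19 and were still called.

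CCL20, the ligand of CCR6, rose in every treatment against NT. It lay at -5.73, -5.79, -4.85 and -5.13 in NT, replicates 3 and 4 well above background. It lay at -2.36, -2.20, -1.68 and -1.64 in C3/C2 and -3.53, -3.25, -2.69 and -3.01 in SN. TRAIL gave -0.047, -0.014, 0.44 and 0.83, TRAIL+C3/C2 4.45, 4.59, 4.60 and 4.72 and TRAIL+SN 4.24, 4.21, 3.96 and 3.95. The order NT, SN, C3/C2, TRAIL, TRAIL+SN, TRAIL+C3/C2 had no overlap between neighbours. The last pair differed by -0.50 (95% interval -0.97 to -0.024, log2), which did not pass the test (limma adjusted p = 0.0899). Against NT, CCL20 was 10.6-fold higher in C3/C2 (log2 difference 3.40 ± 0.23 (SE, n = 4 against 4, limma adjusted p = 2.64e-11)), and within slide 2 this log2 difference was 3.41. SN raised it 4.77-fold and TRAIL 51.1-fold (limma adjusted p = 1.43e-08 and 1.89e-13). The call in SN was lost under normexp background correction (log2 difference 0.985). In the co-treatments it was 998-fold and 706-fold higher than NT on the measured means, 2 of 4 NT arrays being well above background, on log2 differences of 9.96 and 9.46. The differences from NT were smaller under normexp background correction, at 1.69 in C3/C2, 3.67 in TRAIL, 7.71 in TRAIL+C3/C2 and 7.23 in TRAIL+SN, all called. Over TRAIL alone C3/C2 added 4.29 ± 0.23 (SE, n = 4 against 4, limma adjusted p = 5.8e-13) and SN 3.79 ± 0.23 (SE, n = 4 against 4, limma adjusted p = 3.64e-12) on the log2 scale.

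Of the membrane-anchored chemokines, CXCL16 was not called against NT in any treatment on the probe used, and CX3CL1 was called in all but C3/C2. CXCL16, the ligand of CXCR6 and a scavenger receptor, was well above background on all arrays and ranged from -1.89 to -1.14 in NT to -0.64 to -0.36 in TRAIL+C3/C2. Its log2 differences from NT were 0.72 in C3/C2, 0.65 in SN, 0.54 in TRAIL, 0.97 in TRAIL+C3/C2 and 0.58 in TRAIL+SN, all with an adjusted p under 0.05 in limma and all short of 2-fold. That of TRAIL+C3/C2 was called without NT replicate 1 (1.08), NT replicate 2 (1.02) or TRAIL+C3/C2 replicate 4 (1.01). On the other CXCL16 probe the difference of TRAIL+SN from NT was 1.03 and was called. CX3CL1, the fractalkine that binds CX3CR1, was well above background in 1 of 4 NT arrays, at -5.39, -6.39, -6.04 and -5.82. It lay at -4.30, -4.23, -4.68 and -4.69 in SN and -3.55, -4.23, -4.33 and -3.92 in TRAIL, above all NT arrays. CX3CL1 was higher than NT by 1.44 ± 0.26 (SE, n = 4 against 4, limma adjusted p = 4.76e-05) in SN and by 1.90 ± 0.26 (SE, n = 4 against 4, limma adjusted p = 1.17e-05) in TRAIL on the log2 scale. Both differences are across slides, so slide and treatment cannot be told apart in them. The co-treatments lay at -4.40 to -3.62 and -4.35 to -3.43, overlapping TRAIL, with differences from TRAIL of 0.16 (95% interval -0.38 to 0.71) and 0.22 (95% interval -0.33 to 0.76). Against NT the co-treatments were higher by 2.07 and 2.12, both called and also across slides. With normexp background correction, CX3CL1 in TRAIL against NT was 0.848 and in SN 0.520, short of 2-fold, and in TRAIL+C3/C2 and TRAIL+SN 1.08 and 1.10, both called.

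**Figure D3:**
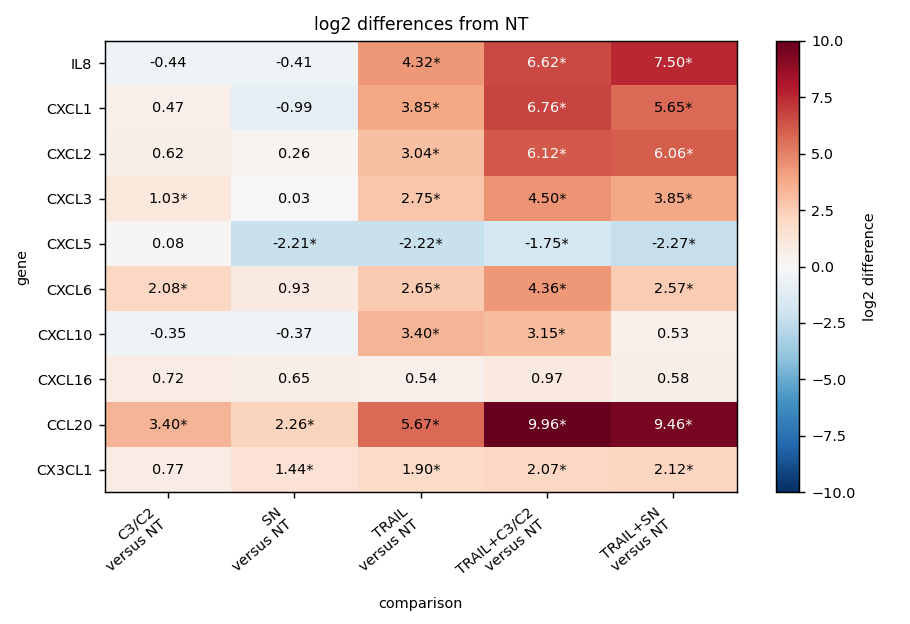
log2 difference from NT of each chemokine (rows) in each treatment (columns), as the number and the colour of each cell, from blue (lower) to red (higher). Stars mark differences of at least 2-fold with an adjusted p under 0.05 in limma (4 arrays against 4). CCL20 reaches 9.96 in TRAIL+C3/C2, and CXCL5 is the gene with negative called values.

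The chemokines called with the acids or the supernatant without TRAIL were as follows, with the shares of all genes beside them. In C3/C2, 3 of the 10 were called higher (CXCL3, CXCL6 and CCL20), where 13.4% of all genes were. In SN, 2 were called higher (CCL20 and CX3CL1), where 14.2% of all genes were, and CXCL5 was lower, where 9.74% were. The median log2 differences of the 10 were 0.67 in C3/C2 and 0.15 in SN, against 0.076 and -0.016 for all genes. IL8 and CXCL10 were well above background on no array of either group. Under normexp background correction 1 chemokine was called in each of these comparisons, CCL20 in C3/C2 and CXCL5 in SN.

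In TRAIL+C3/C2, 8 chemokines were called higher than NT, where 16.3% of all genes were, and CXCL5 lower, where 7.93% were. In TRAIL+SN 7 were called higher, where 16.1% of all genes were, the 8 of TRAIL+C3/C2 without CXCL10, and CXCL5 lower, where 10.1% were. These comparisons share the NT arrays. Over TRAIL alone, 6 chemokines were called higher with C3/C2 (IL8, CXCL1, CXCL2, CXCL3, CXCL6 and CCL20), where 14.8% of all genes were. With SN 5 were called higher over TRAIL, the same without CXCL6, where 14.3% of all genes were, and CXCL10 was called lower, where 8.08% were. The median log2 differences of the 10 from TRAIL were 1.73 with C3/C2 and 0.66 with SN, against 0.11 and 0.049 for all genes. The call of CXCL3 in TRAIL+SN over TRAIL was lost under array median scaling (0.81), spike-in scaling (0.71) and normexp background correction (0.97).

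**Figure D4:**
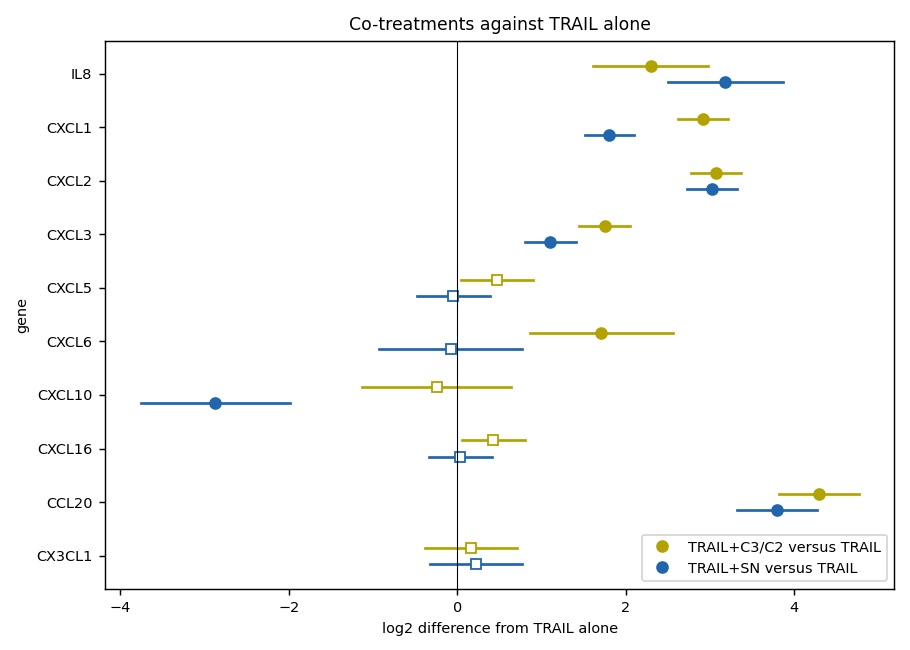
log2 difference of each co-treatment from TRAIL alone (horizontal axis) for each chemokine (vertical axis), with 95% confidence intervals from limma (4 arrays against 4). Filled circles were called (at least 2-fold, adjusted p under 0.05) and open squares were not. CXCL10 is the gene with a called value below 0, at -2.87 in TRAIL+SN.

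Set against each other within slide 4, the co-treatments differed in 3 chemokines, CXCL1, CXCL6 and CXCL10, all lower with SN than with C3/C2, where 2.56% of all genes were. IL8 was the chemokine with a positive difference past the adjusted p, and on its other probe that difference was 1.05 and was called. The call of CXCL1 was lost under array median scaling (-0.96) and spike-in scaling (-0.82), under which IL8 was called higher with SN (1.03 and 1.17). Under normexp background correction CXCL1 alone was called.

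The interaction measures how far a co-treatment departs, on the log2 scale, from the sum of the effects of TRAIL and of the acids or supernatant given alone. With C3/C2 it was called above 0 for 3 of the 10 chemokines, where 0.493% of all genes were: IL8 (2.73 ± 0.46, SE), CXCL1 (2.45 ± 0.20) and CXCL2 (2.45 ± 0.20). For CCL20, whose level rose in C3/C2 alone, it was 0.89 ± 0.32 (limma adjusted p = 0.158). Over the alternatives it ranged from 0.12 to 2.35, and it was called only at 2.35, under normexp background correction. With SN the interaction was called above 0 for 6 chemokines, where 2.76% of all genes were: IL8 (3.59), CXCL1 (2.79), CXCL2 (2.76), CXCL5 (2.16), CCL20 (1.54) and CXCL3 (1.07). It was called below 0 for CXCL10 (-2.50) and CX3CL1 (-1.22), where 0.333% of all genes were. For CXCL5 the level in TRAIL+SN differed from that in TRAIL by -0.047, after falls of like size in TRAIL and SN alone. The calls for CXCL3, CXCL10 and CX3CL1 were lost under normexp background correction (0.849, -0.645 and -0.267), and that for CXCL3 also under array median scaling (0.906), spike-in scaling (0.553), without SN replicate 4 (0.971) and without TRAIL replicate 2 (0.985). That for CCL20 ranged from 1.02 under spike-in scaling to 2.58 under normexp background correction. For IL8 and CXCL10 the interactions rest on levels that were not well above background in NT, C3/C2 or SN, apart from 1 NT array for CXCL10. The interactions draw on arrays of all 4 slides, so slide and treatment cannot be told apart in them.

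Among other genes of the pathway, 12 NF-kB subunits and feedback inhibitors were tested. TRAIL raised 7 of them, TRAIL+C3/C2 10 and TRAIL+SN 9, each against NT, where 0.749%, 16.3% and 16.1% of all genes were called higher. These shares also apply to the lists that follow. The inhibitor NFKBIA differed from NT by 1.73 in TRAIL, 3.35 in TRAIL+C3/C2 and 2.87 in TRAIL+SN on the log2 scale, and TNFAIP3, the feedback regulator A20, by 2.89, 5.22 and 5.54. Over TRAIL alone 4 were called higher and 1 lower with C3/C2, and 5 higher and 1 lower with SN. Of all genes, 14.8% and 14.3% were called higher there. The 1 called lower in each was NFKB1, with mean levels of 2.42 in TRAIL, 1.00 in TRAIL+C3/C2 and 1.17 in TRAIL+SN. Of 5 tested cytokines known to induce chemokines, 3 were called higher in TRAIL, 4 in TRAIL+C3/C2 and 5 in TRAIL+SN. TNF, which activates NF-kB through its own receptors, differed from TRAIL alone by 2.89 with C3/C2 and 3.04 with SN (log2). IL1B, which was raised without TRAIL too, differed from TRAIL alone by 4.41 and 4.61 on the measured means, with 1 of 4 TRAIL arrays well above background. Of 9 other transcription factors of chemokine genes TRAIL raised 1, IRF1 (log2 difference 1.04), and of 7 regulators of AU-rich mRNA decay it raised 1, ZC3H12A, an RNase that degrades inflammatory transcripts (log2 difference 1.05). In TRAIL+C3/C2 and TRAIL+SN against NT, 4 and 6 of the transcription factors and 3 and 3 of the decay regulators were called higher.

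Of 38 other chemokines listed, 34 were on the array, 13 were tested and 0 were called in TRAIL against NT by limma, with 8 at an unadjusted p under 0.05. In C3/C2 and SN, with or without TRAIL, 2 were called higher than NT, CCL3 and CCL27, of which CCL3 was not well above background in NT. Of all genes, 13.4% were called higher in C3/C2 and 14.2% in SN. Of 10 tested chemokine receptors 0 were called in TRAIL by limma, with 5 at an unadjusted p under 0.05. In each co-treatment against NT 2 receptors were called higher and 1 lower. Of all genes, 16.3% were called higher and 7.93% lower in TRAIL+C3/C2, and 16.1% and 10.1% in TRAIL+SN. CCR7, the receptor of lymph node homing, was well above background on no TRAIL array and was at least 4.96-fold higher with C3/C2 and at least 8.87-fold higher with SN than with TRAIL alone. CCR10, a receptor of CCL27, was higher than TRAIL alone by 3.26 with C3/C2 and 2.70 with SN (log2). Of the sheddases of CXCL16 and CX3CL1, ADAM10 was called higher in C3/C2 (1.20) and TRAIL+C3/C2 (1.18) against NT.

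Across the 24 arrays the chemokines formed a few patterns, given here as descriptions, since the arrays share the 6 groups. Among the gene names searched, which left some out, the gene most like IL8 and most like CXCL2 was ICAM1, an adhesion molecule for neutrophils (Pearson r = 0.975 and 0.997). CXCL1 and CXCL3 were most like each other (r = 0.986), and CCL20 was most like IL17C, an epithelial cytokine (r = 0.986). CX3CL1 was most like LSR (r = 0.930), CXCL16 most like SLX1A (r = 0.928), CXCL6 most like SAFB2 (r = 0.921) and CXCL10 most like CCDC86 (r = 0.903).

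Markers of other cell types were looked at beside these results. Of 10 leukocyte markers 8 were on the array, 3 were well above background on all arrays (PTPRC, CD14 and CSF3R), and MS4A1 and MPO on none. Their summed level, in units of the array's 75th percentile, was 1.69 to 2.20 in NT and 1.74 to 2.42 in TRAIL, and 3.29 to 4.89 in the groups with C3/C2 or SN. For the 10 epithelial markers it was 1026 to 1148 in NT, 1367 to 1509 in TRAIL and 1006 to 1514 over all arrays. The summed level of 6 fibroblast markers was 0.123 to 0.207 in NT and TRAIL and 0.547 to 1.34 in the other groups. LUM was well above background on all arrays, and COL1A2, COL3A1 and DCN on none. That of 4 endothelial markers was 0.203 to 0.438 over all arrays, with PECAM1, VWF and CDH5 well above background on all of them and KDR on none. The sums of these 3 lists overlapped between NT and TRAIL. Single markers moved apart from their sums: ITGAM, an integrin of myeloid cells named after its values were seen, was the 1 leukocyte marker of 5 tested that was called in TRAIL against NT (log2 difference 2.33, limma adjusted p = 4.73e-13). Its NT arrays lay between -4.16 and -3.89, its TRAIL arrays between -1.96 and -1.58, and those of TRAIL+C3/C2 and TRAIL+SN between -4.94 and -4.62 and between -4.82 and -4.53, with the TRAIL arrays above all others. COL1A1 and PECAM1 were called higher than NT in C3/C2 and SN, and CD14 in SN. The part of ITGAM in the TRAIL differences, and that of all these markers in the chemokine differences with C3/C2 and SN, was not tested.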

How the data were processed

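HT29 RNA was labelled with Cy3 by the authors and hybridised to 1-colour Agilent arrays, and spot intensities were extracted with Agilent Feature Extraction 10.7.3.1, per the file headers. The deposited intensity of a spot is background-subtracted and detrended, not normalized between arrays; the deposited mean and background intensities served an alternative. The authors' further steps in Rosetta Resolver were not repeated, and the 48 columns of their series table of intensities were not used.

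Intensities were taken to log2, control spots and outlier spots (190 to 315 per array) were left out, and each array's 75th percentile was subtracted. No spot was saturated. Of the 27953 probes that passed the filter, the one with the highest mean level stood for each of 20700 genes. The 6 group means were estimated together from the 24 arrays by limma 3.58.1, run in R 4.3.3 with version 1.17.8 of data.table and statmod 1.5.0. Benjamini-Hochberg adjustment covered all genes tested in each of 11 comparisons, and 95% intervals used the 18 residual degrees of freedom. The number of arrays limits the precision: the median standard error of a log2 difference was 0.11. Tested on simulated data for TRAIL versus NT, the fit recovered 97% of genes changed by 1.5 and 100% of those changed by 3 (log2) among 20683 genes. Alternatives covered scaling, background correction, filter, probe choice, slide, pairing and left-out arrays. From each list the genes named were up to 4 with the largest called differences from NT, of which some are given here. For each chemokine the 3 genes with the highest Pearson r over the 24 arrays were found among a subset of gene names. Names beginning with LOC, XLOC, BC or AK, open reading frame names and similar ones were left out, BCL3 among them. Promoters came from RefSeq (GRCh38.p14), and figures from matplotlib 3.10.9. The members and gene lists were chosen with earlier results of these data known.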

Additional observations from a re-analysis of the deposited data

Results flagged for a closer look

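Among 60 groups of 4 arrays, 2 held an array that stood apart from the rest, where chance flags about 1 in 20 groups. CXCL5 in C3/C2 replicate 1 lay at -2.33, with the other arrays of the group at -1.55 to -1.41; this array was on slide 1, as was NT replicate 1. CX3CL1 in TRAIL+C3/C2 replicate 3 lay at -4.40, with the others at -3.70 to -3.62.

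The effect of TRAIL differed with and without C3/C2, by the test of the interaction, for IL8 (2.73), CXCL1 (2.45) and CXCL2 (2.45), all log2 and above 0. It differed with and without SN for IL8 (3.59), CXCL1 (2.79), CXCL2 (2.76), CXCL5 (2.16), CCL20 (1.54) and CXCL3 (1.07) above 0, and for CXCL10 (-2.50) and CX3CL1 (-1.22) below 0.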

How the results depend on the processing

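Counts of chemokines called stayed within 1.5 times of those given above in 210 of 229 checks. With probes well above background on all 24 arrays, 5 chemokines remain to be tested (CXCL1, CXCL2, CXCL3, CXCL5 and CXCL16), and by that construction the counts fell to 1 in C3/C2 against NT, 1 in SN, 4 in each of TRAIL, TRAIL+C3/C2 and TRAIL+SN, 3 in each co-treatment against TRAIL, 1 between the co-treatments, 3 in TRAIL against SN and 4 in the interaction with SN. Under normexp background correction 1 was called in C3/C2 against NT, 1 in SN, 1 between the co-treatments and 5 in the interaction with SN. With no minimum fold change 7, 6 and 5 were called in C3/C2 and SN against NT and between the co-treatments, where 63%, 69.3% and 37.6% of all genes were. Under spike-in scaling the interaction with C3/C2 had 6 calls, CXCL6 (-1.14), CXCL16 (-1.06) and CX3CL1 (-1.38) below 0, while the median of all genes shifted by -0.77 there. Leaving out 1 array at a time gave 3 to 5 calls in SN against NT, the 5 without SN replicate 2, when CXCL6 (1.41) and CXCL1 (-1.05) were called. Leaving out both arrays of slide 1, chosen after seeing the data, gave 9 calls in TRAIL against NT and 10 in TRAIL+C3/C2, CXCL16 (1.08) added. Of all genes, 3.21% and 24.4% were called there.

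Scaling moved the median of all genes, by -0.35 (array median) and -0.67 (spike-in) in TRAIL+C3/C2 against NT, where 3364 genes were called higher and 1642 lower as given above, 2291 and 3135 with array median scaling, and 1638 and 5484 with spike-in scaling. For TRAIL+SN the shifts were -0.19 and -0.38, and the calls 2664 higher and 2868 lower, and 2197 higher and 3832 lower. Differences that changed sign came to 59 of 2235 checks, none of them called in either setting, and 1 (CXCL6 under normexp background, limma adjusted p = 0.0218) past the adjusted p in the alternative. CXCL16 in TRAIL+C3/C2 versus TRAIL, 0.43 with limma adjusted p = 0.0395 as reported, was past it before the change. Under array median scaling, CXCL5 -0.22 (C3/C2 versus NT), CXCL3 -0.097 (SN versus NT), CXCL16 -0.020 and CX3CL1 -0.28 (TRAIL+C3/C2 versus TRAIL), CXCL16 -0.26 and CX3CL1 -0.077 (TRAIL+SN versus TRAIL), CXCL2 0.10 (TRAIL+SN versus TRAIL+C3/C2), CXCL5 0.21 and CXCL16 0.13 (TRAIL versus SN), CXCL10 -0.040 (interaction of TRAIL and C3/C2). Under quantile normalization, CXCL5 -0.051 (C3/C2 versus NT), CXCL3 -0.060 (SN versus NT), CX3CL1 -0.24 (TRAIL+C3/C2 versus TRAIL), CXCL16 -0.051 and CX3CL1 -0.041 (TRAIL+SN versus TRAIL), CXCL5 0.16 (TRAIL versus SN), CXCL10 -0.15 (interaction of TRAIL and C3/C2). Under normexp background, IL8 0.00089 (C3/C2 versus NT), IL8 0.14 and CXCL10 0.14 (SN versus NT), CXCL10 0.077 (TRAIL+C3/C2 versus TRAIL), CXCL5 0.16 and CXCL6 0.18 (TRAIL+SN versus TRAIL), CXCL5 0.11 (TRAIL versus SN), CXCL6 0.49 (interaction of TRAIL and C3/C2). Under mean of probes, CXCL10 0.016 (SN versus NT), CXCL10 -0.20 (interaction of TRAIL and C3/C2). Under spike-in scaling, CXCL5 -0.22, CXCL16 -0.26, CX3CL1 -0.52 (TRAIL+C3/C2 versus TRAIL), CXCL16 -0.36 and CX3CL1 -0.18 (TRAIL+SN versus TRAIL), CXCL2 0.24 (TRAIL+SN versus TRAIL+C3/C2), CXCL3 -0.047, CXCL5 -0.38, CXCL10 -0.66 (interaction of TRAIL and C3/C2). Over arrays left out in turn, signs changed for CXCL5 -0.14 to 0.30 (C3/C2 versus NT), CXCL10 -0.65 to 0.19 (C3/C2 versus NT), CXCL10 -0.67 to 0.17 (SN versus NT), CXCL3 -0.15 to 0.13 (SN versus NT), CXCL6 -0.21 to 0.086 (TRAIL+SN versus TRAIL), CXCL16 -0.12 to 0.17 (TRAIL+SN versus TRAIL), CX3CL1 -0.13 to 0.24 (TRAIL+SN versus TRAIL+C3/C2), CXCL2 -0.12 to 0.018 (TRAIL+SN versus TRAIL+C3/C2), CXCL5 -0.16 to 0.062 (TRAIL versus SN), CXCL10 -0.43 to 0.40 (interaction of TRAIL and C3/C2). The cause of these changes was not tested.

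Samples with the same replicate number deviated together weakly, with correlations of deviations from 0.062 to 0.475 (median 0.20), and 21 of 24 arrays correlated best with their own number. The lowest correlation was too small for the numbers to count as pairs by the rule used, which asked more of every pair, although the share of arrays closest to their own number is a hint of pairing in the data. With a replicate block the counts called were 3, 3, 9, 9 and 8 for the 5 treatments against NT, unchanged.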
